A study of Mus musculus with 6 samples.

Results

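The genes described here are the matrix metalloproteinases (MMPs), the ADAM and ADAMTS proteases, the tissue inhibitors of metalloproteinases (TIMPs), and the plasminogen activators Plau and Plat with the receptor Plaur. They were chosen by annotated symbol alone (Mmp, Adam or Adamts followed by a digit, Timp1 to Timp4, Plau, Plaur and Plat, without Adamtsl symbols) from probe sets naming exactly 1 gene. This gave 105 probe sets for 81 of the 19938 genes measured, namely 22 MMP, 34 ADAM, 18 ADAMTS and 4 TIMP genes and the 3 genes of plasminogen activation. The brightest probe set stood for a gene. The arrays came from keratinocytes of mouse skin wounds on day 3, taken by laser capture at the advancing tip of the new epithelium, which E-cadherin staining had located. In the diabetic group (n = 3 arrays) diabetes had been induced by a diet high in fat and fructose, begun at 8 weeks of age and kept up for 16 weeks. The normal group (n = 3 arrays) had a control diet for as long and was wounded in the same way. All samples were fixed tissue, with the captured cells of a sample collected over its sections. The labels call the arrays biological replicates but give no strain or sex and do not tie an array to a mouse, so the tests speak only to the spread between the samples at hand.

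MMPs are zinc-dependent endopeptidases that cut collagens, laminins and other matrix proteins, and in healing skin keratinocytes at the wound margin are known to make several of them as they move over provisional matrix. ADAMs sit in the membrane and many shed the extracellular part of growth factor precursors and receptors, while ADAMTS enzymes are secreted and work on procollagens and proteoglycans. TIMPs block the active site of these enzymes. Urokinase (Plau), bound to its receptor, turns plasminogen into plasmin, which dissolves fibrin and activates some MMPs.

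No family gene differed between diabetic and normal keratinocytes past the adjusted threshold, and 0 of all 19938 genes did. Of the 81 family genes 44 had signals no higher than background on any array. The highest probe set signals were those of Adamts17, Adamts9 and Adamts3, each the brightest of several probe sets. Among the genes with a single probe set, the brightest were the leukocyte sheddase gene Adam8, Adam33, Adam11 and the membrane-type collagenase Mmp14. These and others were above background on all arrays. Several genes named for their part in wound repair, among them Mmp9, Mmp10, Mmp3, Adam10, Adam17, Plau, Plaur and Timp1, were not above background on any array. Differences in signal ran from -0.36 (Adamts3, the brightest of 16 probe sets) to 0.40 (Adam1a) on the log2 scale. None reached 1.5-fold, where only 63 of all 19938 genes did.

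Values below are probe set signals on a log2 scale, and every difference is diabetic minus normal. The arrays were dim as a whole. The background limit of each array was set at the 95th percentile of the signals of 1190 chemosensory receptor genes (olfactory and vomeronasal, typical of the nose) and lay between 1.98 and 2.12. For a gene at or below it these arrays give only an upper bound. Of the 19938 genes 17.3% were above the limit on every array and 51.5% on none. Keratinocyte markers were weak too, with 1 of 11 measured (Itgb4) above the limit throughout and 5 on no array. E-cadherin (Cdh1) was above it on no array. In pooled captured cells, fewer cells of a type and less RNA per cell cannot be told apart.

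Of the 81 genes 17 (21.0%) were above the limit on every array, 20 on some and 44 (54.3%) on none, close to the shares for all genes. Among ADAMTS genes 7 of 18 were above it throughout and 4 on no array, and among MMP genes 6 of 22 and 12. Adamts3, Adamts9 and Adamts17 were read as the brightest of several probe sets, and of the 15 ADAMTS genes with a single probe set 4 (26.7%) were above the limit throughout, beside 27.3% of MMP genes. Differences between subfamilies were not tested. For ADAM genes the counts were 4 and 22 of 34. No TIMP gene was above the limit on all arrays, and Plau, Plaur and Plat were above it on none. Many ADAM genes are known mainly from testis and epididymis. Of a list of 22 ADAM genes described in the reproductive tract, some of them also elsewhere, 0 were above the limit throughout and 17 on no array. Of the 5 broadly expressed catalytic ADAMs only Adam15 was above it on all arrays, while Adam10 and Adam17, the main sheddases of Notch receptors and of TNF and EGFR ligands, were above it on none. Counted by array, 28, 29 and 26 family genes were above the limit in diabetic samples against 23, 22 and 24 in normal samples. Over all genes the shares were 35.2%, 36.5% and 29.1% in diabetic samples against 27.4%, 28.4% and 28.4% in normal samples, and the limit itself was lowest on diabetic replicates 1 and 2 (1.98 and 2.01).

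**Figure D1:**
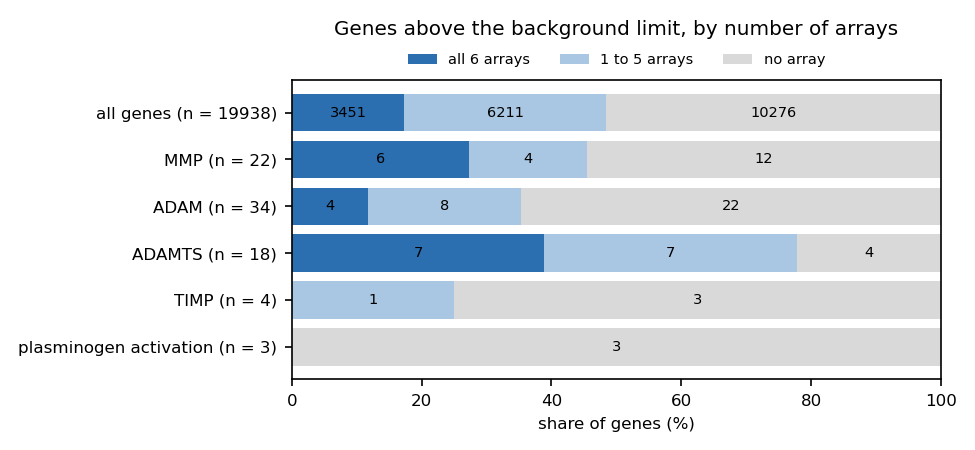
Horizontal bars give the share of genes (%) above the background limit on all 6 arrays, on 1 to 5 arrays and on no array, for all 19938 genes and for each subfamily, with gene counts printed in the bars. On all arrays 7 of 18 ADAMTS genes were above the limit (4 of the 15 with a single probe set), as were 6 of 22 MMP genes and none of the 3 plasminogen activation genes.

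Several secreted MMP genes known from keratinocytes and inflammatory cells lie side by side on chromosome 9, in a run of 10 neighbours with no other protein-coding gene between them in RefSeq (GRCm38.p6). These were Mmp13, Mmp12, Mmp1b, Mmp3, Mmp1a, Mmp10, Mmp8, Mmp27, Mmp20 and Mmp7. None of the 10 was above the limit on all arrays and 8 were above it on none. Mmp13 exceeded it on normal replicate 2 (2.29) and Mmp7 on diabetic replicate 2 (2.02). The promoters of 8 of the 10, all but Mmp8 and Mmp27, hold TGANTCA, a loose form of the AP-1 binding motif. AP-1 is the Fos and Jun factor through which many stimuli are known to act on MMP genes. The motif TGANTCA, which reads the same on both strands, was searched in RefSeq promoter windows from 250 bases before to 50 after each annotated gene start. It was found in 8 of the 12 windows of the 10 neighbours, in 0 of the 8 windows of 7 other MMP genes, in 14 of 54 windows of all 49 family genes with a window, and in 7.81% of 32851 mouse windows. Outside the run it occurred in Adam19, Adam1b, Adam20, Adam25, Adam29 and Plaur, and in 0 of 9 ADAMTS and 0 of 4 TIMP windows. The stretches from 110 to 20 bases before the start are shown for the 8 neighbours that hold it, because the motif recurs there within a short distance of the start. Capitals mark the motif, and each sequence runs 5′ to 3′ in the direction of the gene.
Mmp13 (chr9:7272404-7272494, plus strand): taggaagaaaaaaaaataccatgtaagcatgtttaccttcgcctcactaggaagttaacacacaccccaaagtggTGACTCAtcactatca
Mmp12 (chr9:7347264-7347354, plus strand): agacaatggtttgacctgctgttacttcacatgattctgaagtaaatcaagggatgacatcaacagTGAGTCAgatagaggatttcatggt
Mmp1b (chr9:7388046-7388136, minus strand): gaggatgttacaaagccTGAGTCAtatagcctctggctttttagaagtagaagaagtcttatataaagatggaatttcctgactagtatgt
Mmp3 (chr9:7445712-7445802, plus strand): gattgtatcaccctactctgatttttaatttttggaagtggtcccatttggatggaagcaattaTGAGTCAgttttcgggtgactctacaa
Mmp1a (chr9:7464031-7464121, plus strand): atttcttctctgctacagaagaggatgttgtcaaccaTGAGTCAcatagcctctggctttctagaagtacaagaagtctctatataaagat
Mmp10 (chr9:7502232-7502322, plus strand): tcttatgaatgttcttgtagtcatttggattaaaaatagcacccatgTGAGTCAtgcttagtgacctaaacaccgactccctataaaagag
Mmp20 (chr9:7628121-7628211, plus strand): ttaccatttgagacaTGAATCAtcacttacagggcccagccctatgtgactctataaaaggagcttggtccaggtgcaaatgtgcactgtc
Mmp7 (chr9:7691980-7692070, plus strand): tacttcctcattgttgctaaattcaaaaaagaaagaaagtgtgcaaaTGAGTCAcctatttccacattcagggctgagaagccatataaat
The first base of the motif lay 35 bases before the annotated start in Mmp13, 44 in Mmp12, 46 in Mmp3, 63 in Mmp10 and Mmp7, 73 in Mmp1a, 93 in Mmp1b and 95 in Mmp20. In Mmp20 the central base is A, whereas the other 7 have C or G there, the bases of the usual AP-1 site. A match is a description of the letters and says nothing of binding in these cells.

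**Figure D2:**
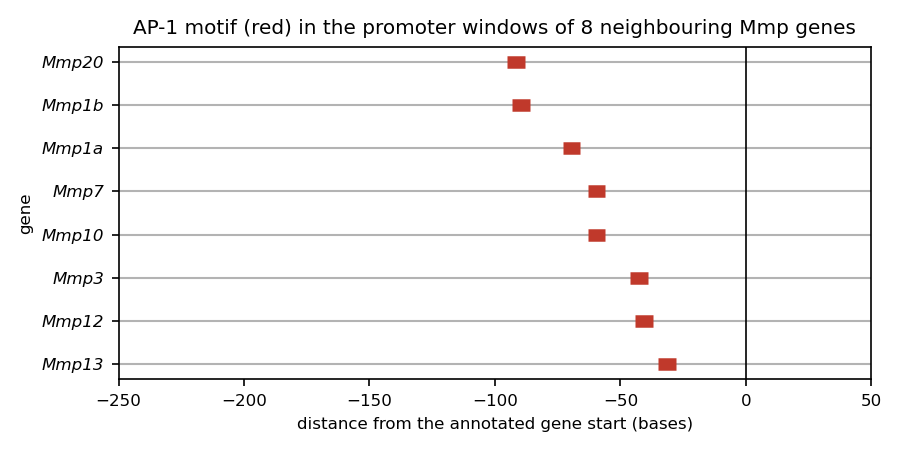
Each line is the promoter window of an Mmp gene of the chromosome 9 run, drawn by distance in bases from the annotated gene start (black line). The red block is the motif TGANTCA, a loose form of the AP-1 motif. All 8 motifs begin between 95 and 35 bases before the start.

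Among collagenases, which open the triple helix of fibrillar collagen, Mmp13 read 1.72, 1.90 and 2.07 in diabetic samples against 2.09, 2.29 and 1.91 in normal samples. The groups overlapped, with a difference of -0.20 (SE 0.14; limma adjusted p 0.911). Mmp1a differed by -0.18 (SE 0.13), Mmp1b by less than 0.01 and the neutrophil collagenase Mmp8 by -0.03, all at background. The stromelysin gene Mmp3 read 1.58, 1.41 and 2.05 in diabetic samples against 1.46, 1.34 and 1.44 in normal samples. Diabetic replicate 3 alone stood out, and without it the difference fell from 0.27 to 0.08. Mmp10, the stromelysin known from the leading edge of wounds, read 1.35, 1.45 and 1.50 against 1.53, 1.51 and 1.42, a difference of -0.05 (SE 0.10). Mmp7 (matrilysin) differed by 0.09 (SE 0.12).

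The macrophage elastase gene Mmp12 was at 1.50, 1.75 and 1.49 in diabetic samples against 1.45, 1.16 and 1.39 in normal samples. All diabetic values were above all normal values, and the difference was 0.25 (SE 0.12; unadjusted p 0.0559, limma adjusted p 0.893). Each of these values was under the background limit, and 0 of 7 macrophage markers exceeded the limit on any array. The summed linear signal of those 7 markers lay between 19.6 and 20.5 on diabetic and between 19.9 and 21.2 on normal arrays. The part of macrophages in the Mmp12 values was not tested.

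The gelatinase gene Mmp9, made by neutrophils as well as keratinocytes, read 1.84, 1.95 and 1.73 in diabetic samples against 1.87, 2.08 and 2.08 in normal samples. The ranges overlapped, with a difference of -0.17 (SE 0.12; limma adjusted p 0.911). Of 7 neutrophil markers 0 were above the limit throughout and 4 on no array, and their summed linear signal was 23.4 to 25.3 on diabetic and 24.7 to 30.2 on normal arrays. The highest sum was that of normal replicate 2, where S100a9 read 3.08 against 1.82 and 2.25 on the other normal arrays. The part of neutrophils in the Mmp9 values was not tested. Mmp2, the gelatinase typical of fibroblasts, was above the limit on every array, at 2.04, 2.44 and 2.72 in diabetic samples against 2.49, 2.33 and 2.56 in normal samples. Diabetic replicates 1 and 3 held the lowest and highest of these values, and the difference was -0.06 (SE 0.17). Mmp14, the membrane-type enzyme that activates pro-Mmp2, read 2.70, 2.53 and 2.79 against 2.53, 2.74 and 2.79. The group means were 2.68 ± 0.13 and 2.69 ± 0.14 (SD), and the 95% confidence interval of the difference was -0.31 to 0.29. Of 9 fibroblast markers 3 were above the limit on all arrays (Col1a1, Col1a2 and Col3a1), with a summed linear signal of 43.6 to 53.4 on diabetic and 43.8 to 45.1 on normal arrays. What fibroblast RNA adds to the Mmp2 and Mmp14 signals was not tested.

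The other MMP genes above the limit on all arrays were Mmp11, Mmp17, Mmp23 and Mmp28. Mmp28 (epilysin), a keratinocyte MMP, read 2.33, 2.59 and 2.56 in diabetic samples against 2.19, 2.47 and 2.14 in normal samples. Its groups overlapped at normal replicate 2, and the difference was 0.22 (SE 0.14; limma adjusted p 0.893). Mmp11 (stromelysin-3), known from stroma, differed by -0.17 (SE 0.15), Mmp17 by 0.04 and Mmp23 by 0.10. Over the 22 MMP genes 9 differences were above and 13 below 0 (median -0.01), and none had an unadjusted p under 0.05.

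**Figure D3:**
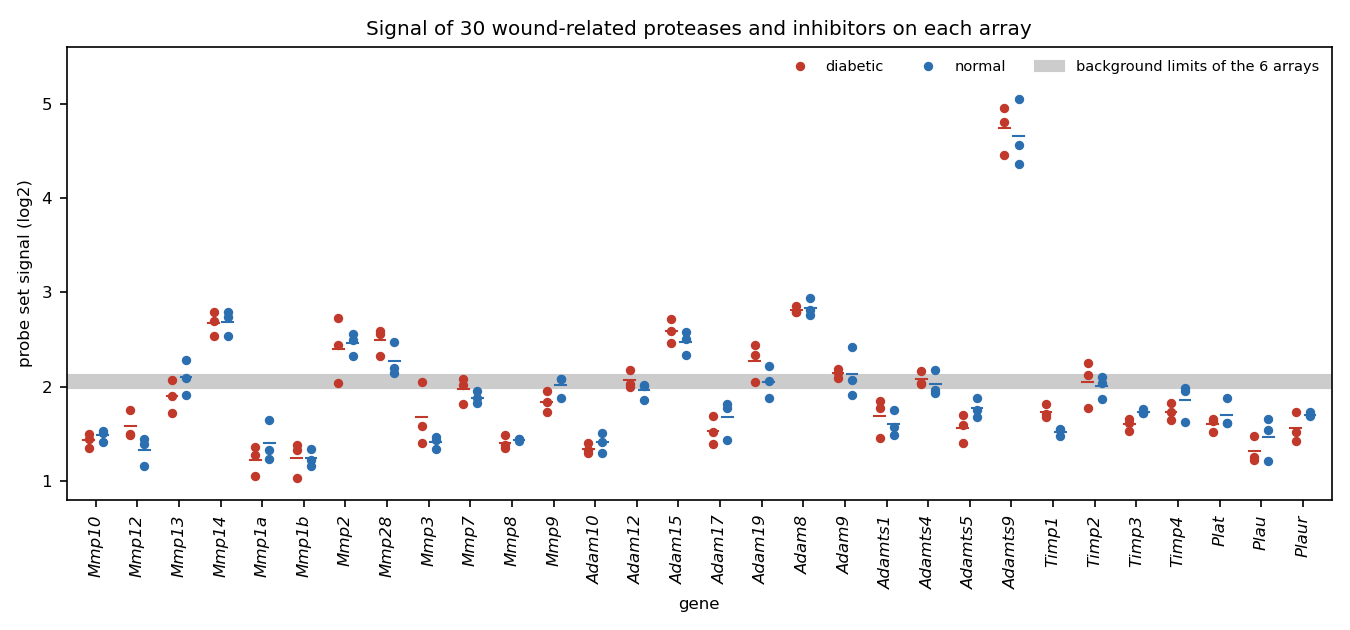
Points are log2 probe set signals of 30 genes with known roles in wounds on each diabetic (red) and normal (blue) array, short lines are group means (n = 3), and the grey band spans the background limits of the 6 arrays (1.98 to 2.12). Of the 30 genes 17 lie at or below the limit on every array. The groups do not overlap for Timp1, Mmp12 and Timp3 (10% of the 30, where 10.7% of all genes did not overlap).

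The smallest unadjusted p-values in the family belonged to ADAM genes of the reproductive tract. Adam1a, which encodes a fertilin subunit of male germ cells, read 2.40, 2.06 and 1.88 in diabetic samples against 1.54, 1.62 and 1.96 in normal samples. Diabetic replicates 1 and 2 were above the limit, while normal replicate 3 was above diabetic replicate 3. The difference was 0.40 (SE 0.16; unadjusted p 0.0255, limma adjusted p 0.844) and became 0.26 without diabetic replicate 1. Adam21 read 1.36, 1.14 and 1.60 against 1.85, 1.68 and 1.55, a difference of -0.33 (SE 0.13; unadjusted p 0.0299, limma adjusted p 0.859). Adam25 read 1.13, 1.22 and 1.07 against 1.52, 1.15 and 1.50, a difference of -0.25 (SE 0.11; unadjusted p 0.0481, limma adjusted p 0.891). The groups overlapped in all 3 genes, and every Adam21 and Adam25 value was under the limit. Several ADAM genes of this kind are near-identical copies, so their probe sets may share signal.

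These 3 were the only family genes with an unadjusted p under 0.05, that is 3 of 81 (3.70%), where 5.56% of all genes had one. Adam1a was higher and the other 2 lower, against 2.64% and 2.92% of all genes in each direction. After adjustment the family count was 0, with 0% of all genes called, and the smallest adjusted p in the family was 0.844 in limma. A linear model without variance moderation also called 0, and had 5 family genes at an unadjusted p under 0.05 (Adam29, Adam33, Adam39, Timp1 and Timp3). The share of all genes under that model is not given here, so the 5 are not read as a result about the family. Without normal replicate 3 the unadjusted count in limma was 6, and with any other array left out it was 2 or 3. These counts too stand without the shares of all genes in the same fits, and a rise particular to the family was not tested. The 3 diabetic and 3 normal values did not overlap for 6 family genes (7.41%, where 10.7% of all genes did not). Of the 6, Mmp12, Timp1 and Adam33 were higher in diabetic samples (5.02% of all genes) and Adam29, Adam39 and Timp3 lower (5.66%). Of the 81 differences 35 were above and 46 below 0, with a median of -0.02, where the median over all genes was less than 0.01 in size.

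The sheddases gave small differences. Adam17 (TACE) read 1.39, 1.52 and 1.68 in diabetic samples against 1.82, 1.43 and 1.77 in normal samples, and the difference was -0.14 (SE 0.13). Adam10 read 1.33, 1.41 and 1.30 against 1.30, 1.42 and 1.51, a difference of -0.07 (SE 0.10). Values of both genes overlapped between the groups and stayed under the limit. Adam9 exceeded the limit on 3 diabetic arrays and 1 normal array and differed by less than 0.01 (SE 0.14). Adam15, with an adhesive disintegrin domain, was at 2.59 ± 0.13 and 2.47 ± 0.12, a difference of 0.12 (SE 0.13). Adam19 read 2.05, 2.33 and 2.44 against 2.06, 1.88 and 2.21, a difference of 0.23 (SE 0.14), and was above the limit on 3 diabetic arrays and 1 normal array. Such counts also follow the limits, which differ by array. For Adam19 diabetic replicate 1 (2.05) was above its limit of 1.98, and normal replicate 1 (2.06) was under its limit of 2.11. Adam12, an ADAM of mesenchyme and muscle, differed by 0.11 (SE 0.12).

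Adam8, best known from leukocytes, had steady signals of 2.85, 2.80 and 2.80 in diabetic samples against 2.76, 2.81 and 2.94 in normal samples, above the limit throughout. Its difference was -0.02 (SE 0.13), with a 95% confidence interval of -0.31 to 0.26. Adam33, described in mesenchymal cells, read 2.85, 2.80 and 2.82 against 2.59, 2.68 and 2.76. All its diabetic values were above its normal values, a difference of 0.15 (SE 0.13; limma adjusted p 0.918). Adam11, a neuronal ADAM that lacks the catalytic site, read 2.70, 3.00 and 2.84 against 2.46, 2.74 and 2.64, a difference of 0.23 (SE 0.14).

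Of 7 skeletal muscle markers all had differences above 0 (median 0.23). For 4 of the 7 the diabetic values were higher without overlap (57.1%, where 5.02% of all genes were). None passed the adjusted threshold (smallest limma adjusted p 0.812), and 2 (Myh2 and Myot) had an unadjusted p under 0.05, where 2.64% of all genes were higher at that level. Their summed linear signal was 41.6 to 48.5 on diabetic and 37.3 to 41.3 on normal arrays, and 4 of the 7 were above the limit on all arrays. Of the 11 keratinocyte markers 5 had differences above and 6 below 0 (median -0.16), and none passed the adjusted threshold. Trp63, a factor of basal keratinocytes, differed by -0.31 (unadjusted p 0.0425, limma adjusted p 0.887). No other marker of the 11 had an unadjusted p under 0.05 (9.09%, where 5.56% of all genes had one). Cdh1 (-0.16) and the desmosomal gene Perp (-0.25) were lower in diabetic samples without overlap (18.2% of the 11, where 10.7% of all genes did not overlap). The 5 above 0 were Krt14 (0.23), Krt5 (0.19), Krt17 (0.06), Itga6 (0.05) and Itgb4 (0.05), all overlapping between the groups. The summed linear signal of the 11 was 41.9 to 48.8 on diabetic and 45.5 to 48.6 on normal arrays. The part of muscle RNA in the signals of Adam12, Adam19 and Adam33, and of keratinocyte RNA in those of the family, was not tested.

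Adamts17, Adamts9 and Adamts3 carried the highest family signals, and they were also the only members with several probe sets (27 in all), so that their values are the brightest of several. Adamts17 read 5.08, 4.59 and 4.81 in diabetic samples against 4.95, 5.09 and 5.15 in normal samples, and the difference was -0.23 (SE 0.18). Adamts9, a proteoglycan-cutting enzyme, read 4.80, 4.45 and 4.96 against 4.56, 4.36 and 5.05, a difference of 0.08 (SE 0.21). Adamts3, which trims procollagens and activates pro-VEGF-C, read 2.86, 3.16 and 3.56 against 3.83, 3.32 and 3.51. Its groups overlapped, with a difference of -0.36 (SE 0.20; unadjusted p 0.0978, limma adjusted p 0.893). The size depended on single arrays, at -0.19 without diabetic replicate 1, -0.22 without normal replicate 1 and -0.54 without diabetic replicate 3 (unadjusted p 0.0197, limma adjusted p 0.915). Other probe sets of these genes gave other readings. For Adamts3 3 of 16 were above the limit throughout and 8 on no array, with differences from -0.36 to 0.24, 6 above and 10 below 0. The mean over its 16 probe sets differed by -0.02. For Adamts9 3 of 6 probe sets and for Adamts17 2 of 5 were above the limit on all arrays, and their differences ran from -0.13 to 0.21 and from -0.23 to -0.01. Which probe sets report the mature transcript was not tested.

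**Figure D4:**
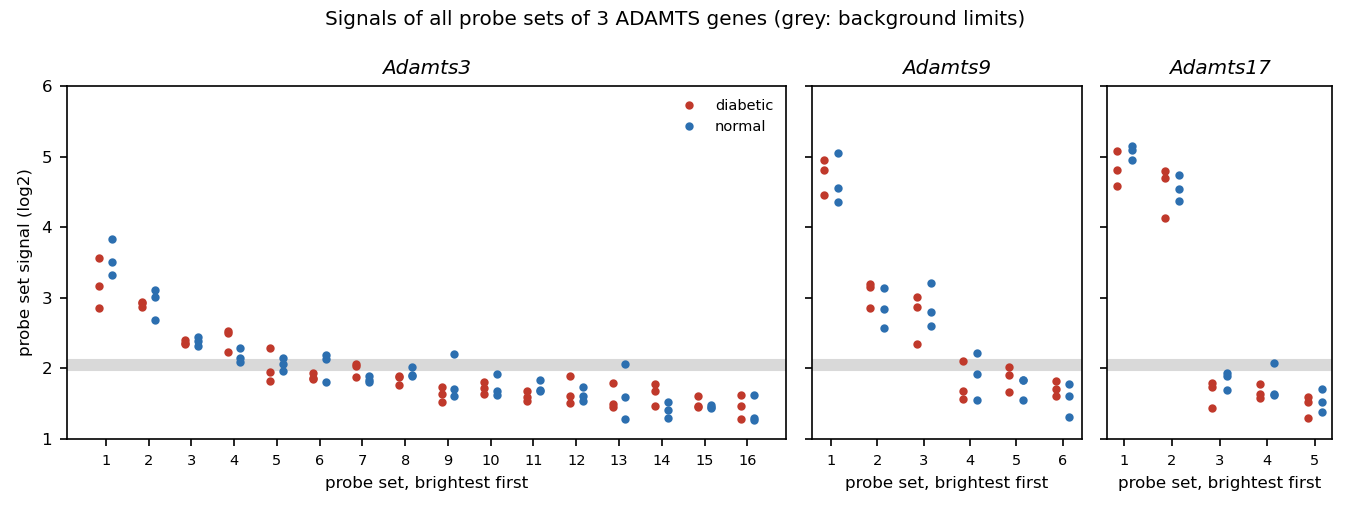
Each column is a probe set of Adamts3 (16), Adamts9 (6) or Adamts17 (5), ordered from brightest to dimmest, with log2 signals on the diabetic (red) and normal (blue) arrays and the background limits in grey. Signals of the same gene range from background up to 3.38 (Adamts3), 4.70 (Adamts9) and 4.94 (Adamts17) as means over all arrays.

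The aggrecanase genes Adamts4 and Adamts5, whose products cut proteoglycans, differed by 0.05 (SE 0.12) and -0.20 (SE 0.12). Adamts5 read 1.41, 1.59 and 1.70 against 1.68, 1.75 and 1.88, overlapping and under the limit on all arrays. The versican-cutting Adamts1 differed by 0.08 (SE 0.13). Among the remaining ADAMTS genes above the limit on all arrays, Adamts7 differed by -0.15, Adamts8 by 0.04, Adamts13, the von Willebrand factor protease, by 0.13 and Adamts18 by 0.01. The procollagen protease gene Adamts14, above the limit on 3 diabetic and 2 normal arrays, differed by 0.18 (SE 0.13). On normal replicate 2 it read 2.09, just under the limit of 2.11 on that array. Of the 18 genes 10 had differences above and 8 below 0 (median 0.01).

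The inhibitors did not move together. Timp1, the inducible TIMP, read 1.81, 1.71 and 1.68 in diabetic samples against 1.48, 1.55 and 1.54 in normal samples. All diabetic values were higher, by 0.21 on average (SE 0.10; unadjusted p 0.0660, limma adjusted p 0.893), and all were under the background limit. Timp3, which binds to matrix and also inhibits Adam17, read 1.53, 1.66 and 1.61 against 1.72, 1.72 and 1.76. All its diabetic values were lower, a difference of -0.13 (SE 0.10; limma adjusted p 0.911), again under the limit. Timp2, the partner of Mmp14 in activating pro-Mmp2, read 1.77, 2.25 and 2.12 against 2.04, 2.10 and 1.87 and differed by 0.04 (SE 0.14). Timp4 differed by -0.12 (SE 0.13).

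The plasminogen activators were at background. Plau read 1.25, 1.48 and 1.23 in diabetic samples against 1.54, 1.66 and 1.21 in normal samples, and the difference was -0.15 (SE 0.13). Its receptor gene Plaur read 1.42, 1.73 and 1.52 against 1.69, 1.73 and 1.69, a difference of -0.15 (SE 0.11). Plat, the tissue-type activator, differed by -0.10 (SE 0.12). The values of the groups overlapped in all 3 genes, and limma adjusted p-values were 0.911 or more.

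**Figure D5:**
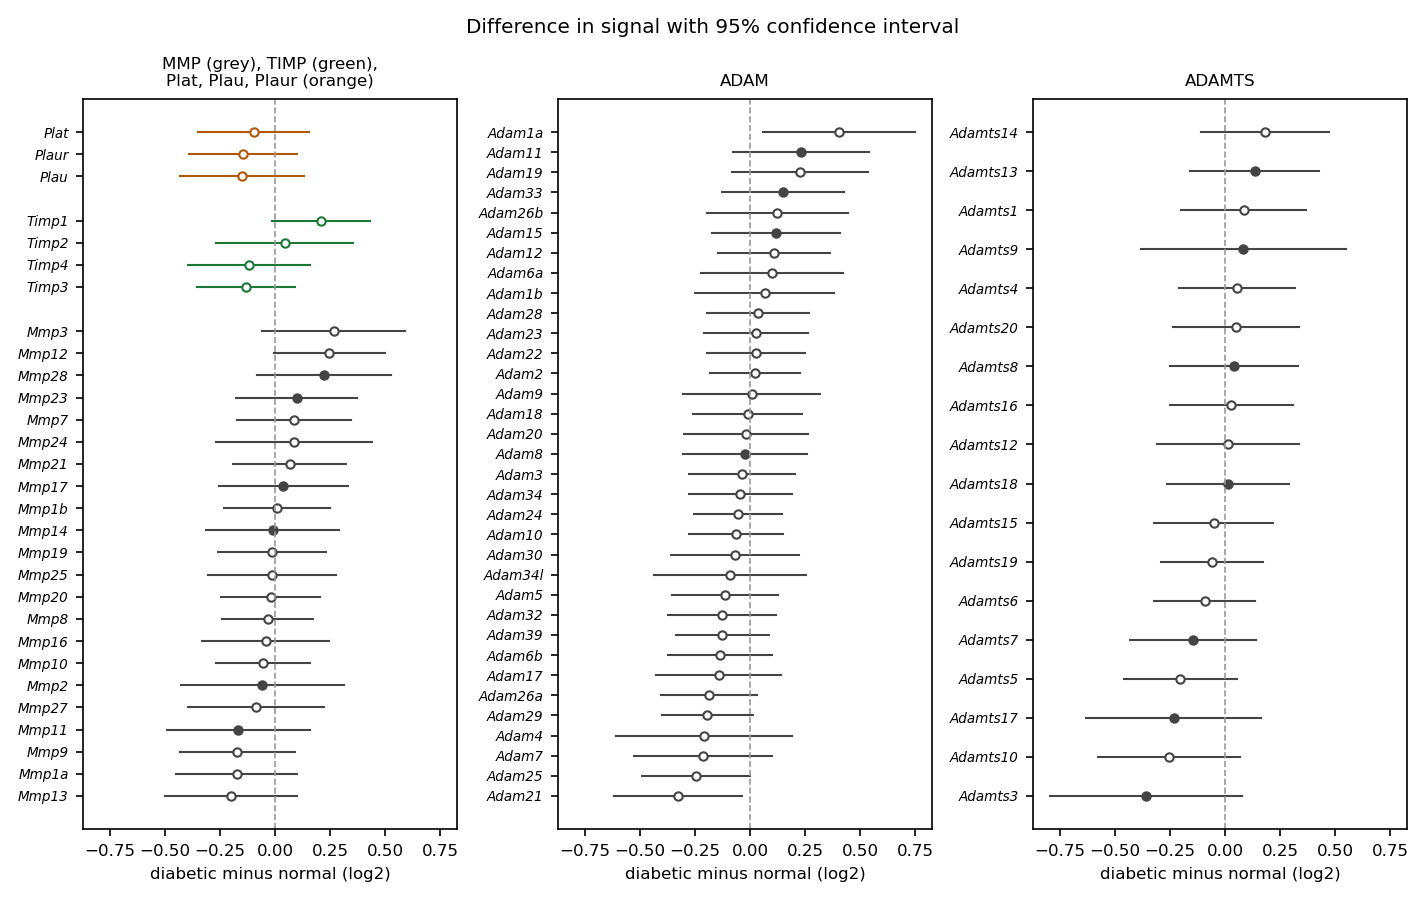
Points are diabetic minus normal differences (log2) of all 81 family genes with limma's 95% confidence intervals (n = 3 arrays per group), filled where the gene was above the background limit on all 6 arrays. The intervals of Adam1a, Adam21 and Adam25 leave out 0, and all 81 lie within 2-fold in either direction.

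The limits of the 95% confidence interval were inside 2-fold for all 81 genes (99.6% of all genes) and inside 1.5-fold for 75 (90.9% of all genes). Where a gene sat at background, its interval is about signal only and sets no bound on the difference in RNA.

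Genes that work with these proteases gave no adjusted call either. Of 11 measured plasmin system partners 6 had differences above and 5 below 0, 0 with an unadjusted p under 0.05, among them Anxa2, a plasminogen docking protein gene (0.21), the plasmin inhibitor gene Serpinf2 (0.10), the plasminogen receptor gene Plgrkt (0.05) and Serpinb2, an inhibitor of urokinase (-0.10). Of 18 activators, anchors and inhibitors 15 had differences above and 3 below 0 (median 0.06), again 0 with an unadjusted p under 0.05. Over all genes 9715 differences were above and 10223 below 0. Of the 18 genes 9 were above the limit on no array, and their shared direction was not tested. The 18 included Spint1, an inhibitor of matriptase (0.14), the membrane-anchored MMP inhibitor gene Reck (0.11), Klk6 (0.12) and the serine protease gene Tmprss11e (-0.18). Of 24 regulators and substrates of ADAM sheddases 12 had differences above and 12 below 0, with 1 at an unadjusted p under 0.05 (4.17%, where 5.56% of all genes had one). This was Tnf, the namesake substrate of Adam17, at 1.77, 1.98 and 1.71 in diabetic samples against 2.24, 2.40 and 2.22 in normal samples. All its diabetic values were lower and under the limit, a difference of -0.46 (SE 0.12; limma adjusted p 0.780). The groups did not overlap for 3 of the 24 genes (12.5%, where 10.7% of all genes did not). The TNF receptor gene Tnfrsf1a, also shed by Adam17, differed by 0.22 (SE 0.11), the EGFR ligand gene Ereg by -0.16 (SE 0.11) and Cdh1, a substrate of Adam10, by -0.16 (SE 0.11).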

How the data were processed

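Total RNA from 6 laser-captured keratinocyte samples was labelled with biotin and hybridised to whole-transcript arrays, per the labels' protocols. The table the authors deposited holds a log2 signal per array for each of 35556 probe sets. The base of the logarithm was taken from the range of the values (0.31 to 13.3). The submitters' processing notes name Partek. How background, normalization and probe set summaries were handled is not stated in the labels. No columns belonged to other series.

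Names came from the platform's annotation table (21789 with 1 symbol, 1621 with several, 12146 not listed), with symbols updated by gene ID through RefSeq (GRCm38.p6; 21698 matched). For each gene the probe set with the highest mean was used, without a filter on dim genes. The groups were tested in limma 3.58.1 under R 4.3.3 (lmFit, eBayes with an intensity trend, two-sided, group as the only term), with Benjamini-Hochberg adjustment over all 19938 genes at 0.05. The fit was also run on simulated independent values with variances drawn from limma's own model. Such data cannot show how the fit does on correlated or background-limited signals. Members, lists, the background limit and the naming rule were chosen with earlier results of these data known. Named genes were 30 with roles in wounds, all members with an unadjusted p under 0.05, the 10 brightest, the 5 largest differences each way among members above the limit on all arrays of a group, and up to 4 genes of each partner list by p. Genes of other kinds, such as the groups' non-overlapping members, were named after their values were seen. Summed linear signals add 2 to the power of each log2 value. The precision is limited by the number of arrays. Promoter sequences are from RefSeq (GRCm38.p6). Protein sequence features were not analysed here. Alternatives covered scaling, variance model, array weights, filters, probe set handling, a replicate block, each array left out, and the background limit.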

Additional observations from a re-analysis of the deposited data

How the results depend on the processing

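The count of family genes past the adjusted threshold was 0 in limma in every alternative, with a smallest adjusted p of 0.621 (without normal replicate 2). The count at an unadjusted p under 0.05, 3 with all arrays, was 5 without variance moderation, 1 among the brighter 50% of genes (38 members) and 0 among genes above the background limit in a group (22 members), and 2 to 6 with an array left out. In the last 2 filters all genes gave 563 and 412, since fewer genes were tested. Shares of all genes are not given for these settings, so the member counts are not read as a change in the family. Over all genes 0 to 2 passed the adjusted threshold with an array left out (2 without diabetic replicate 2 and 1 without diabetic replicate 3). The median difference over family genes was 0.033 and 0.044 under the 2 filters, which removed dim members, and -0.04 to -0.01 with an array left out. The filter on the background limit kept Adam9, Adam19, Adamts14, Adamts20 and Mmp24 through their diabetic arrays alone. The differences of these genes were all above 0, so the median under that filter partly follows from how members were kept. With the limit at the 90th percentile 24 members (29.1% of all genes) were above it on all arrays, at the median of all genes 25 (32.4% of all genes), and at the 99th percentile 3 (3.10% of all genes). With the replicate block 2 family genes had an unadjusted p under 0.05. Same-numbered arrays were not paired by their deviations from the group means (correlations -0.018, 0.0078 and 0.014), and not every array correlated best with its own number. Over 629 values of 42 named members under 16 alternatives, 21 changed sign, all in 9 genes (Adam8, Adam9, Adamts8, Adamts9, Mmp14, Mmp1b, Mmp2, Mmp8 and Timp2) whose differences were at most 0.08 in size, and none became a call. The dim signals limit what these arrays can show for genes at background.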

Other observations

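Beside the 105 probe sets used, 2 probe sets name a family gene together with other genes, 1 for Adam4 with Gm4787 and 1 for 5 genes of the Adam26 and Adam34 cluster. Both were under the background limit on all 6 arrays. They differed by -0.07 and 0.06 between the groups, and neither was used above.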
